A study of Mus musculus with 6 samples.

Results

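The 8 genes described here encode the core of the inflammasome and of pyroptosis in the mouse: the sensors Nlrp3, Nlrc4 and Aim2, the adaptor Pycard, the inflammatory caspases Casp1 and Casp4, and the gasdermins Gsdmd and Gsdme. They were chosen by name, with earlier results of these data known, and all 8 of 8 were found among the 14943 gene symbols of the count table. RNA of the peritoneum, the membrane lining the abdominal cavity, was sequenced from C57BL/6J males, wild type and 8 weeks old. The 3 EPS libraries model encapsulating peritoneal sclerosis, in which fibrous tissue encases the bowel. Daily abdominal injections gave these mice 100 mL/kg of dialysis solution at 4.25% together with 0.3 mL of SHS, an abbreviation the labels do not expand. Lipopolysaccharide (LPS), the endotoxin of bacterial outer membranes, was added weekly at 4 mg/kg. Saline of equal volume was injected in the 3 control libraries' mice, and tissue was taken in week 3. The EPS mice received all 3 agents, so the effects of dialysis solution, SHS and LPS cannot be told apart.

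An inflammasome is a protein complex that a sensor builds in the cytosol after it meets a microbial product or a sign of cell damage. Through the adaptor ASC, the product of Pycard, the sensor gathers and activates caspase-1, which matures the cytokines interleukin-1 beta and interleukin-18. Caspase-1 also cuts gasdermin D, and the freed fragment forms pores in the plasma membrane, a lytic death called pyroptosis. Macrophages and neutrophils are the cells best known for this machinery, and mesothelial cells of the peritoneum can also express parts of it.

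Library totals lay between 15419232 and 16651797 counts in EPS and between 16092608 and 17684229 in controls. The exocrine pancreas list of 15 genes took 18.6% of the counts in EPS 1, 0.0273% in EPS 2 and 0.0837% in EPS 3, against 0.0364% to 0.411% in controls. Markers of the mesothelium were detected in both groups, with a summed level of 43.2 to 363 CPM (counts scaled to a common library size with TMM factors) in EPS against 128 to 204 CPM in controls. The highest sum, in EPS 1, rests largely on Krt8 (86.3 CPM) and Krt18 (106 CPM). None of the 8 markers was called in the main fit, while 4 were called higher and 1 lower without EPS 3. Only Upk3b did not overlap between groups, lying lower in every EPS library. The adipocyte list of 7 genes summed to 1161 to 1766 CPM in EPS against 15960 to 16810 CPM in controls. Controls 1 and 2 were closer to each other (mean chi-square per gene 4.41) than either was to control 3 (15.9 and 16.4), and EPS 2 and EPS 3 (48.1) than either was to EPS 1 (412 and 406). This mean uses counts scaled by library totals only and is weighted to genes of high count. It includes the exocrine pancreas genes, and their part in the distance of EPS 1 was not tested. Whether the 3 libraries of a group come from separate mice is not stated in the labels, so the tests measure the spread between libraries, which may be technical.

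Of the 8 members, 7 were higher in EPS and 1, Gsdme, was lower, each at an adjusted p under 0.05 by edgeR's quasi-likelihood test. That is 87.5% higher, against 29.2% of all 13980 genes tested, and 12.5% lower, against 30.4% of all genes tested, of which 59.6% were called in either direction. The median log2 fold change of the members was 1.82, against -0.02 over all genes tested. The sensors and the adaptor differed most, between 4.49 and 8.74-fold higher in EPS, while the caspases and Gsdmd were between 2.27 and 2.78-fold higher. Libraries of the groups did not overlap for any member: in 7 genes every EPS library lay above every control library, as for 33.1% of genes tested, and in Gsdme every EPS library lay below, as for 35.4%.

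**Figure D1:**
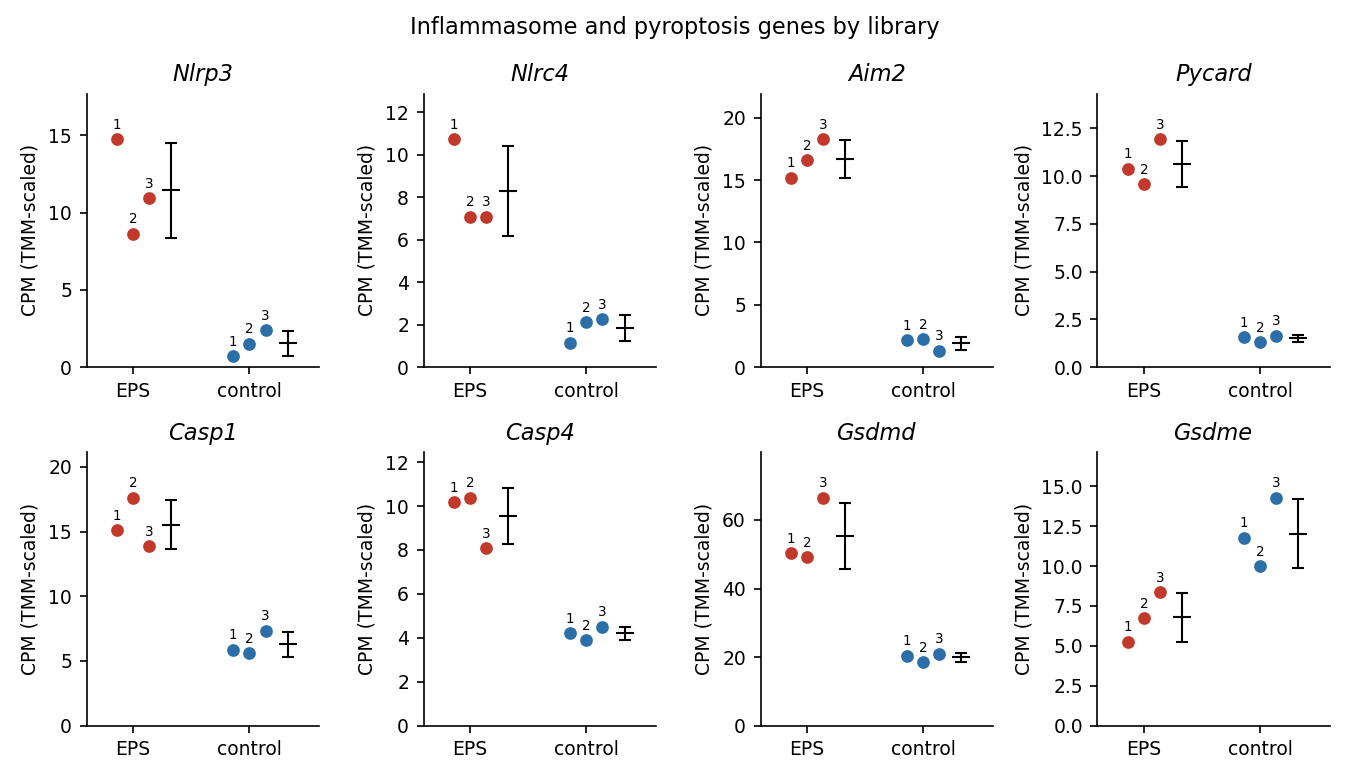
CPM of the 8 members in each library (points, numbered by replicate) with the mean and SD of the 3 libraries of a group (bars beside the points), EPS in red and control in blue, each panel on its own linear axis from 0. EPS libraries lie above all controls in 7 panels and below them in the Gsdme panel.

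Markers of several cell types moved with the same comparison. Of 12 macrophage markers, 10 were higher and 1 was lower in EPS, and their summed level was 4001 to 4798 CPM in EPS against 907 to 1051 CPM in controls. The lower one, Cd163, a scavenger receptor, was not called without any 1 of control 1, control 2, control 3, EPS 2 or EPS 3, nor with library totals. All 10 neutrophil markers were higher, with sums of 552 to 1797 CPM in EPS against 5.81 to 8.07 CPM in controls, where Ly6g had no count. Without any 1 of the controls or without EPS 2, 9 of the 10 were called, and limma-voom called 7. All 9 T and NK cell markers measured were higher, with sums of 267 to 490 CPM in EPS against 5.15 to 6.86 CPM in controls. So were all 8 B and plasma cell markers, with 948 to 1253 CPM in EPS against 41.0 to 52.8 CPM in controls. Sdc1 made up most of these control sums, at 27.8 to 32.5 CPM, and its log2 fold change was only 0.47. Of 8 fibroblast markers 5 were higher and none was lower, with sums of 7289 to 12787 CPM in EPS against 3667 to 3934 CPM in controls. The largest terms of the EPS sums were Col1a1, Col1a2 and Col3a1. Pi16, called higher, overlapped between groups, and Dpt lay below every control in each EPS library but did not pass (edgeR adjusted p = 0.0634). DESeq2, limma-voom, a replicate block and the fit without EPS 2 each called 1 of the 8 lower. All 6 blood endothelium markers were lower, as was Gsdme, with sums of 905 to 1089 CPM in EPS against 2079 to 2283 CPM in controls, and 4 of them were called with library totals. All 7 adipocyte markers were lower too. In bulk tissue, fewer cells of a type and less RNA per cell cannot be told apart. The part of these cells in the members' differences was not tested, and levels relative to the macrophage markers are given further on.

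Aim2, a sensor of double-stranded DNA in the cytosol (chromosome 1, 173350879 to 173466040), stood at 15.2, 16.6 and 18.3 CPM in EPS 1 to 3, against 2.14, 2.25 and 1.32 CPM in controls 1 to 3. Its EPS libraries were the closest to each other of any member, with a coefficient of variation of 9.32%, and its log2 fold change was 3.13 ± 0.24 (SE; adjusted p = 1.90e-05). Nlrp3, which responds to potassium loss, crystals and other signs of damage (chromosome 11, 59541568 to 59566956), had 14.8, 8.65 and 10.9 CPM in EPS, against 0.714, 1.52 and 2.38 CPM in controls. EPS 1 was the highest library and control 1, with 10 counts, the lowest. The log2 fold change of Nlrp3 was 2.88 ± 0.42 (adjusted p = 6.00e-04). Nlrc4, which with NAIP proteins answers bacterial flagellin and secretion systems (chromosome 17, 74425438 to 74459142), had 10.7, 7.09 and 7.08 CPM in EPS, against 1.14, 2.11 and 2.25 CPM in controls. As with Nlrp3, EPS 1 was the highest and control 1 the lowest library, and the log2 fold change was 2.17 ± 0.34 (adjusted p = 7.81e-04).

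For the members, the 250 bases upstream of each start site listed by RefSeq (GRCm38.p6) were searched for motifs on both strands. Windows were found for 7 of the 8 members, 9 windows in all, as Nlrp3 and Casp4 have 2 start sites. Gsdmd had no window and was not searched. The 4 motifs were the PU.1 core GAGGAAGT, the interferon response element core (GAAA, any 2 bases, GAAA), the STAT core TTCNNNGAA and the NF-kappaB consensus. Of all 32851 promoter windows, 2.44% hold the PU.1 core, 2.98% the interferon response core, 7.02% the STAT core and 3.90% the NF-kappaB consensus. In the members, the PU.1 core was found in Aim2 and Pycard and the NF-kappaB consensus in Nlrp3 and Casp4. No window of a member held the interferon response or STAT cores as spelled. These letter matches are a description and do not show that a factor binds. The Aim2 window (chr1:173420354-173420603, plus strand) holds the PU.1 core, in capitals, 113 bases before the start. The upstream Nlrp3 window (chr11:59541319-59541568, plus strand) holds the NF-kappaB consensus on the reverse strand, in capitals, 186 bases before the start.
Aim2: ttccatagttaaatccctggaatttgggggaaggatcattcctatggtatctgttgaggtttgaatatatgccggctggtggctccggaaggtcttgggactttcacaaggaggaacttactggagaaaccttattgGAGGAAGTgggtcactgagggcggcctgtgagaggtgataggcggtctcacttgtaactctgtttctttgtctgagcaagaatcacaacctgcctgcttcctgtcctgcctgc
Nlrp3: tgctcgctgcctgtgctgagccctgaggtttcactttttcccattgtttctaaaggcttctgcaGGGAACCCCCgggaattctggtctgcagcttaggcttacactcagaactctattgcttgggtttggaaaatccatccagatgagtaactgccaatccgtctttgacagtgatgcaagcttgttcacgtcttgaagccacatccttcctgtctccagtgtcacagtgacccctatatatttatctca

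Pycard encodes ASC, the adaptor that links sensors to caspase-1 (chromosome 7, 127989708 to 127993867). It stood at 10.4, 9.59 and 11.9 CPM in EPS, against 1.57, 1.32 and 1.65 CPM in controls. Both groups were tight, with a coefficient of variation of 11.2% in EPS and 11.4% in controls, and the log2 fold change was 2.81 ± 0.23 (adjusted p = 2.64e-05). A transcript annotated on the opposite strand, Gm45205, shares 485 bases of Pycard's exons, and no strand marking is stated, so reads of the pair cannot be told apart. The Pycard window (chr7:127993868-127994117, minus strand) holds the PU.1 core, in capitals and read on the reverse strand, 44 bases before the start.
Pycard: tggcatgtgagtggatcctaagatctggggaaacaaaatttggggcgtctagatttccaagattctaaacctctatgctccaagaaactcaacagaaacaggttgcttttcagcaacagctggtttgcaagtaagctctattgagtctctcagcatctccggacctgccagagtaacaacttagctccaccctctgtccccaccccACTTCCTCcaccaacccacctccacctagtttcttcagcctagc

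The inflammatory caspases differed less. Casp1, the protease of the canonical inflammasome (chromosome 9, 5298517 to 5307265), had 15.1, 17.6 and 13.9 CPM in EPS, against 5.86, 5.62 and 7.34 CPM in controls. Casp4, the mouse gene of caspase-11, which binds LPS inside the cell (chromosome 9, 5308828 to 5336783), had 10.2, 10.4 and 8.07 CPM in EPS, against 4.21, 3.90 and 4.50 CPM in controls. In both genes EPS 2 was the highest and EPS 3 the lowest EPS library, and all EPS libraries stood above the controls. The log2 fold changes were 1.31 ± 0.18 for Casp1 (adjusted p = 4.66e-04) and 1.18 ± 0.21 for Casp4 (adjusted p = 0.00144). The gene bodies lie in a row, 1562 bases apart, with Casp12 a further 8646 bases on, and share no exonic bases. Casp12, a related caspase, was at 9.08 ± 2.29 CPM in EPS and 13.7 ± 1.98 CPM in controls (SD, n = 3 each) and did not pass (log2 fold change -0.59 ± 0.23, adjusted p = 0.0534). It was called lower without EPS 1 (0.0390) and by limma-voom (0.0398). The first Casp4 window (chr9:5308599-5308848, plus strand) holds 2 overlapping matches to the NF-kappaB consensus, in capitals, which begin 93 and 92 bases before the start. The second Casp4 window, whose start lies close by, holds a pair of matches too.
Casp4: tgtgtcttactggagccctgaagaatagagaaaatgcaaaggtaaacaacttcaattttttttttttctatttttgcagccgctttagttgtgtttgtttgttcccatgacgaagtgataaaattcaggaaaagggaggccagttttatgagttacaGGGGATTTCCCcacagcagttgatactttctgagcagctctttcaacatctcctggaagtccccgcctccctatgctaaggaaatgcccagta

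The gasdermins parted. Gsdmd encodes gasdermin D, the pore-forming substrate of caspase-1 and caspase-11 (chromosome 15, 75862327 to 75867408). It stood at 50.4, 49.1 and 66.5 CPM in EPS, against 20.4, 18.4 and 21.0 CPM in controls, and its log2 fold change was 1.47 ± 0.15 (adjusted p = 6.97e-05). EPS 3 stood above EPS 1 and EPS 2, which were close to each other. Gsdme encodes gasdermin E, another pore-forming member of the family (chromosome 6, 50188888 to 50263862). It had 5.27, 6.72 and 8.37 CPM in EPS, against 11.8, 9.98 and 14.3 CPM in controls, so the highest EPS library lay under the lowest control. Its log2 fold change was -0.82 ± 0.23 (adjusted p = 0.0152), or 1.77-fold lower in EPS. The call rests on control 3 and on the scaling: without control 3 it was -0.68 (adjusted p = 0.0683), and with library totals in place of TMM factors -0.37 (adjusted p = 0.313). Over all alternatives the adjusted p of Gsdme ranged from 0.00780 to 0.313 and the fold change stayed negative. Library totals raise the log2 fold change of the median gene by 0.42 and give 5657 genes higher and 2182 lower, against 4088 and 4245 with TMM factors.

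**Figure D2:**
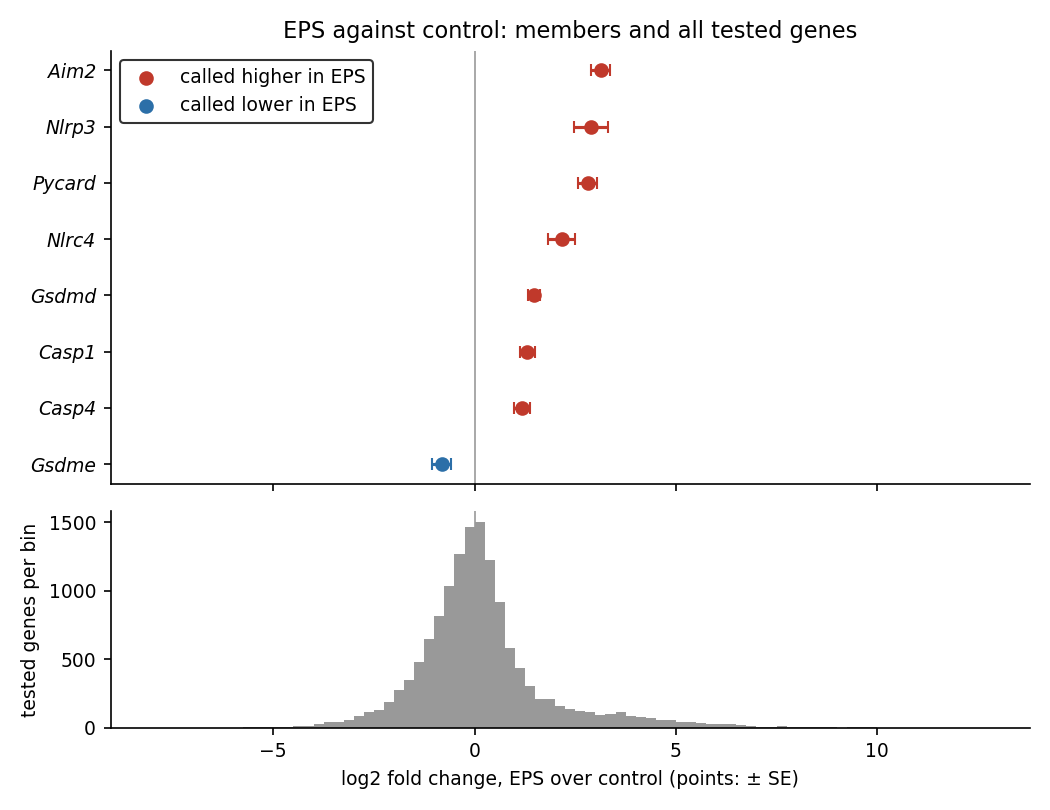
Log2 fold change of each member, EPS over control (upper panel, points with SE), above the distribution of log2 fold changes of all 13980 tested genes in bins of equal width (lower panel). Members called higher are red and lie between 1.18 and 3.13, and Gsdme, called lower, is blue at -0.82.

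Levels between members were set side by side per kilobase of transcript, taken as the transcript with the longest coding sequence in GENCODE vM21. In EPS, Gsdmd was first at 30.9 ± 5.42 CPM per kb (SD, n = 3), followed by Casp1 at 10.4 ± 1.28, Casp4 at 6.65 ± 0.892 and Aim2 at 5.88 ± 0.548 CPM per kb. Casp4 and Aim2 overlapped. Nlrp3, Pycard, Gsdme and Nlrc4 stood between 2.63 and 2.85 CPM per kb in EPS, each overlapping the next. In controls, Gsdmd was again first at 11.1 ± 0.744 CPM per kb, then Gsdme at 4.80 ± 0.865 and overlapping Casp1 at 4.19 ± 0.624. Casp4 followed at 2.93 ± 0.209 CPM per kb, and Aim2, Nlrc4, Pycard and Nlrp3 lay between 0.383 and 0.671 CPM per kb, each overlapping the next. On this length, Gsdme was the seventh member in EPS and the second in controls. The order depends on the length used: over all annotated exons, which come to 12742 bases for Gsdme against 2502 in the transcript, Gsdme was the eighth in EPS and the fourth in controls. Casp4, with 3710 bases of exons against 1435 in the transcript, was then the sixth in EPS, at 2.57 CPM per kb, after Aim2, Nlrp3 and Pycard. Pycard has 3800 bases by either length, so this comparison could not change its level, which rests on that annotated length.

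Ratios within a library, in which library scaling largely cancels, were compared for 5 pairs of members. The log2 ratio of Gsdmd over Gsdme was 3.23, 2.85 and 2.97 in EPS, against 0.79, 0.88 and 0.55 in controls, a difference of 2.28. The ratio of Casp1 over Pycard ran the other way, at 0.53, 0.87 and 0.21 in EPS, against 1.82, 1.99 and 2.07 in controls, a difference of -1.42. Nlrp3 over Nlrc4 was at 0.45, 0.28 and 0.62 in EPS, against -0.60, -0.45 and 0.08 in controls. For these 3 ratios the groups did not overlap, and each had an exact two-sided permutation p of 0.1, the smallest that 3 against 3 libraries allow (0.167 adjusted over the 5 ratios). For the caspase pair, Casp1 over Casp4 was 0.70 ± 0.12 in EPS and 0.56 ± 0.12 in controls (log2, SD, n = 3 each; exact permutation p = 0.2). For enzyme and substrate, Gsdmd over Casp1 was 1.82 ± 0.40 in EPS and 1.66 ± 0.14 in controls (exact permutation p = 0.7). In both of these the groups overlapped, which does not show that the partners differ by the same amount.

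**Figure D3:**
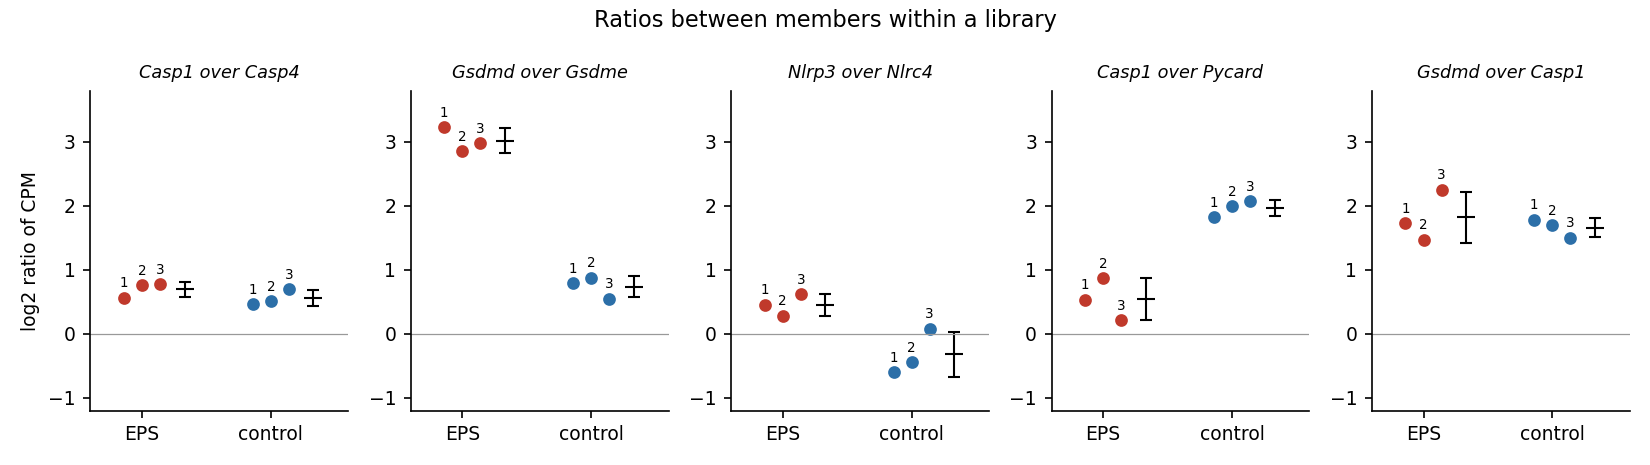
Log2 ratio of CPM between 5 pairs of members in each library (points, numbered by replicate) with the mean and SD of a group (bars beside the points), EPS in red and control in blue, on a shared axis. EPS and control separate for Gsdmd over Gsdme, Nlrp3 over Nlrc4 and Casp1 over Pycard, and overlap for the other pairs.

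Set against the macrophage markers of the same library, the members no longer ran mostly one way. Each value here is the log2 CPM of a gene minus the mean log2 CPM of the 12 macrophage markers. A difference between groups is thus the member's own change less that of the markers, and adds no independent evidence. Its sign depends on the list chosen. The median log2 fold change was 2.10 for the macrophage markers. It was 8.34 for the neutrophil, 5.77 for the T and NK, and 6.15 for the B and plasma markers. Aim2 stood at -3.74, -3.54 and -3.26 in EPS, against -4.26, -4.23 and -5.03 in controls, and Pycard at -4.28, -4.32 and -3.87 in EPS, against -4.68, -4.94 and -4.73 in controls. Both were higher in every EPS library, by 0.99 for Aim2 and 0.63 for Pycard on average. Nlrp3 and Nlrc4 overlapped between groups, with differences of 0.82 and 0.04. Casp1, Casp4 and Gsdmd were lower relative to the markers in every EPS library, with differences of -0.79 for Casp1, -0.93 for Casp4 and -0.63 for Gsdmd, although each was higher in CPM. Gsdme differed most, at -4.82 ± 0.43 in EPS and -1.90 ± 0.21 in controls (SD, n = 3 each). Each of the 6 members whose groups did not overlap had an exact two-sided permutation p of 0.1, the smallest possible (0.133 adjusted over the 8 members). The marker levels themselves come from tissue, so this comparison does not say which cells hold the members' RNA.

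**Figure D4:**
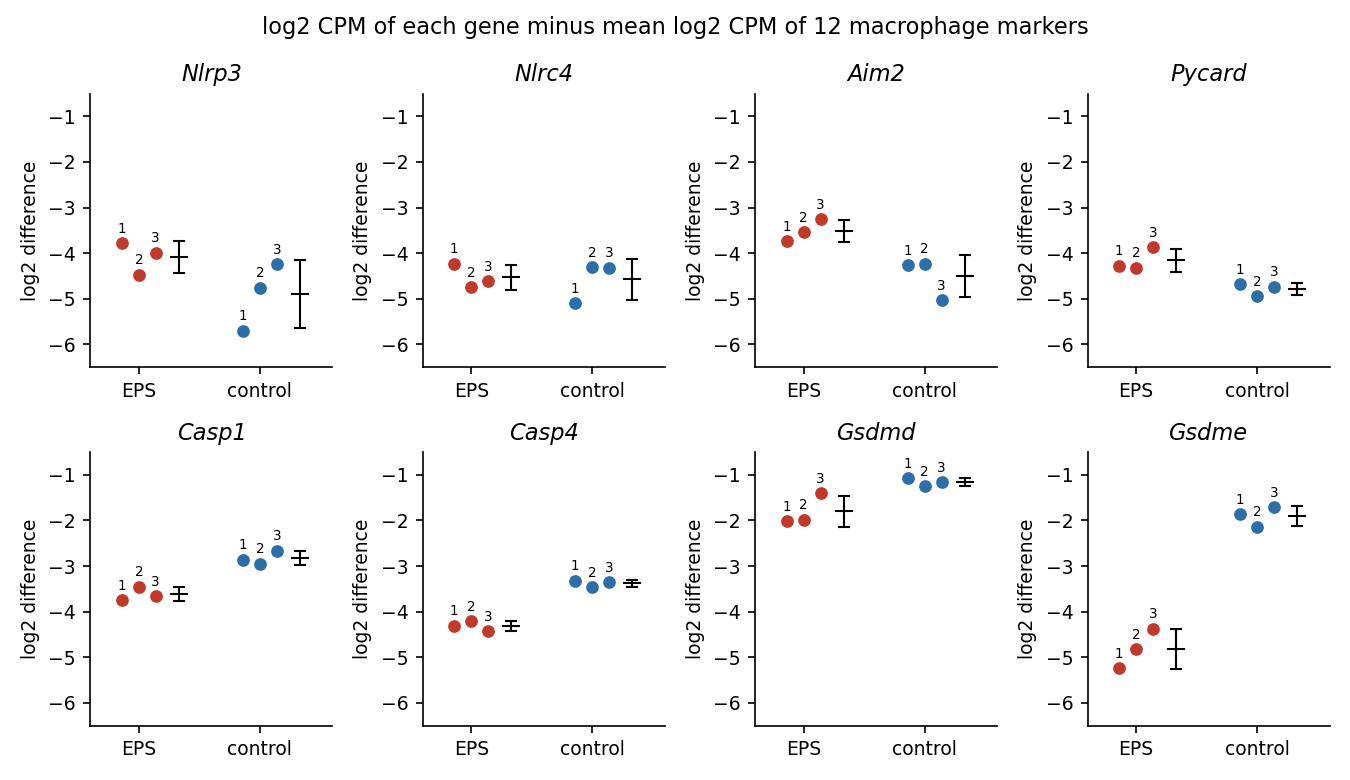
Log2 CPM of each member minus the mean log2 CPM of 12 macrophage markers in the same library (points, numbered by replicate), with the mean and SD of a group (bars beside the points), EPS in red and control in blue, on a shared axis. Aim2 and Pycard lie higher in EPS, Nlrp3 and Nlrc4 overlap, and Casp1, Casp4, Gsdmd and Gsdme lie lower in EPS.

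Members did not share 1 pattern among the EPS libraries. Nlrp3 and Nlrc4 peaked in EPS 1, Casp1 and Casp4 in EPS 2, and Aim2, Pycard, Gsdmd and Gsdme in EPS 3. The highest EPS library exceeded the lowest by 1.71-fold for Nlrp3, the widest of the 8, and by the least for Aim2. EPS 1 was the library with by far the most pancreatic counts, and EPS 3 had the highest neutrophil sum. The largest term of that sum was Ngp, at 786 CPM. Csf3r alone of the neutrophil list was not highest in EPS 3, with 159 CPM in EPS 1 and 149 CPM in EPS 3. The part of the pancreatic counts or of neutrophils in the members' patterns was not tested. Without EPS 1, all 7 members remained called higher and Gsdme lower. Profiles were taken as log2 CPM less the gene's control mean, so genes of similar fold change lie close. By root mean square difference over the 6 libraries, the genes most like each member were sought among 12146 others. They were Mcm10 and Satb1 for Aim2 (0.10 and 0.14), Rel and Racgap1 for Pycard (0.08 and 0.09), and Il1rl2 and P2ry12 for Casp1 (0.10 for both). They were Gbp2 and Fmnl2 for Casp4 (0.07 and 0.08), Csk and B3galt4 for Gsdmd (0.07 for both), and Flad1 and Pex10 for Gsdme (0.08 and 0.10). Nlrp3 had no gene as close, with Marchf1 nearest at 0.29, and Nlrc4 had Cd200r1 at 0.22. These 2 members also varied most among controls, with coefficients of variation of 54.2% for Nlrp3 and 32.9% for Nlrc4. The part of that spread in their larger distances was not tested.

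Other sensors of the pathway were also higher in EPS, 12 of 13 tested and none lower, with a median log2 fold change of 2.31. Nlrp6 was too low to test, and Nlrp10 did not pass. Naip2, which brings bacterial secretion system proteins to NLRC4, stood at 41.9, 41.3 and 41.1 CPM in EPS, against 7.57, 5.88 and 4.96 CPM in controls (2.76 ± 0.17, adjusted p = 7.74e-06). Naip6, a flagellin receptor of the same complex, had a log2 fold change of 2.70 ± 0.28. Mefv, which encodes pyrin, a sensor of RhoA inactivation, averaged 20.6 ± 6.36 CPM in EPS and 0.266 ± 0.196 CPM in controls (SD, n = 3 each). Its log2 fold change was 6.21 ± 0.48, and 6.85 without control 3. Ifi203, of the same family of DNA-binding proteins as Aim2, had 2.10 ± 0.19. Naip genes, Nlrp1a and Nlrp1b, and Ifi203 and Ifi204 have close copies, and the labels do not say how reads matching several genes were counted, which leaves their values uncertain.

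**Figure D5:**
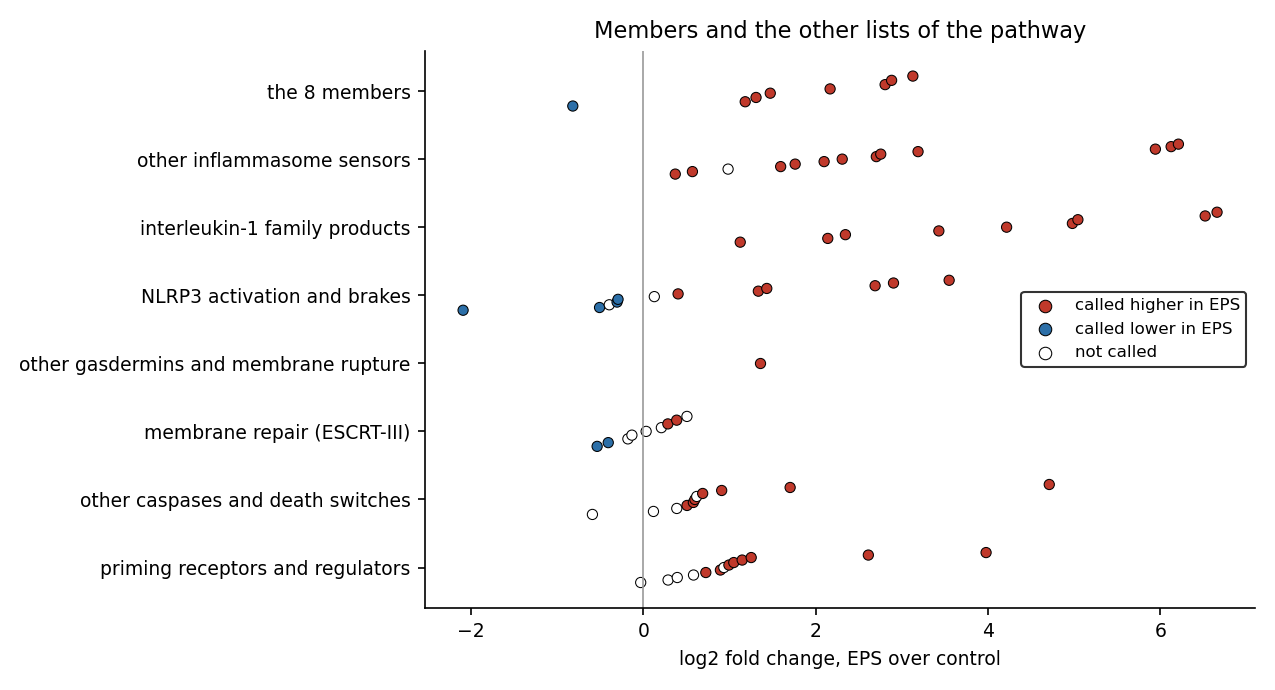
Log2 fold change, EPS over control, of the 8 members and of the tested genes in 7 further lists of the pathway, 1 point per gene, red where called higher, blue where called lower and white where not called. All interleukin-1 family genes lie above 0, while the NLRP3 regulators and the membrane repair genes lie on both sides.

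All 9 interleukin-1 family ligands, antagonists and receptors on the list were higher in EPS, with a median log2 fold change of 4.22. Il1rn, the receptor antagonist that blocks interleukin-1, had 58.8, 26.8 and 39.6 CPM in EPS, against 1.43, 1.12 and 1.39 CPM in controls (4.98 ± 0.34, adjusted p = 1.39e-05). Il18bp, the secreted inhibitor of interleukin-18, averaged 52.3 ± 8.93 CPM in EPS and 11.9 ± 0.891 CPM in controls (SD, n = 3 each; log2 fold change 2.14 ± 0.16). The interleukin-18 receptor chains Il18rap and Il18r1 had log2 fold changes of 4.22 ± 0.41 and 3.43 ± 0.38, that of Il18rap being 4.88 without control 3. The substrates of caspase-1 were named after their values were seen. Il1b, for interleukin-1 beta, had 346, 119 and 282 counts in EPS, against 2, 4 and 0 counts in controls, a ratio of 98.6 (exact 95% counting interval 45.1 to 269). Its log2 fold change was 6.66 ± 0.85 (adjusted p = 4.22e-04), and 7.56 without control 2. Il18 was at 11.9 ± 0.860 CPM in EPS and 2.35 ± 0.726 CPM in controls (2.35 ± 0.26, adjusted p = 1.30e-04). Il1b varied more among EPS libraries than Il18 and was highest in EPS 1, as were Nlrp3 and Il1rn.

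Of 12 genes tested that act on NLRP3 or on its partners, 6 were called higher and 4 lower. Over all genes tested, 29.2% were called higher and 30.4% lower, so calls both ways are not particular to this list. Trim31, with no count in any library, was not tested. Pstpip1, a pyrin-binding protein, had 52.2, 60.8 and 80.1 CPM in EPS, against 5.71, 5.42 and 5.36 CPM in controls (3.55 ± 0.19). Panx1, a membrane channel, and Card6 had log2 fold changes of 2.69 ± 0.21 and 1.43 ± 0.12. Txnip, a thioredoxin-binding protein that can bind NLRP3, fell to 255 ± 36.2 CPM in EPS, against 1087 ± 84.2 CPM in controls (SD, n = 3 each; -2.09 ± 0.15, adjusted p = 1.41e-05). It was also lower with library totals, at -1.65. The other lower calls were small and depended on settings. Of these, Nek7, a kinase that NLRP3 needs, had -0.31 ± 0.11 and Dpp8 -0.29 ± 0.11, and with library totals both turned positive, at 0.11 and 0.12. The count of lower genes was 1 without control 2 or without control 3, and with library totals, and Nlrx1, at -0.51 ± 0.16, was not called in these fits.

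Downstream of the gasdermin pore, Ninj1, whose product ruptures the plasma membrane, had 170, 134 and 151 CPM in EPS, against 55.6, 63.9 and 58.7 CPM in controls (1.35 ± 0.12, adjusted p = 3.70e-05). The other 8 genes of that list were not analysed here. Of 9 genes of the ESCRT-III machinery, which repairs membrane pores, 2 were higher and 2 lower, with a median log2 fold change of 0.03. The shares over all genes tested were 29.2% higher and 30.4% lower. Chmp4b and Vps4b had 0.39 ± 0.11 and 0.28 ± 0.09, and Vps4a and Chmp3 had -0.54 ± 0.10 and -0.41 ± 0.10. These differences were small: without control 1 or control 2 neither of the higher genes was called, Vps4b was not called without control 3 or EPS 2 either, and with library totals Vps4a was at -0.10 and Chmp3 at 0.02, and neither was called.

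Of 11 other caspases and cell death genes, 7 were higher and none was lower, with a median log2 fold change of 0.60. Among all genes tested, 29.2% were higher and 30.4% lower. Zbp1, a nucleic acid sensor that can start necroptosis and pyroptosis, had 84.1, 156 and 148 CPM in EPS, against 5.50, 5.15 and 4.17 CPM in controls (4.71 ± 0.28, adjusted p = 9.26e-06). The necroptosis kinases Ripk3 and Ripk1 had log2 fold changes of 1.70 ± 0.24 and 0.51 ± 0.09, and Casp2 had 0.91 ± 0.15.

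Among 13 receptors and regulators that prime inflammasome genes, 8 were higher and none was lower, with a median log2 fold change of 0.93. Shares of 29.2% higher and 30.4% lower held over all genes tested. Irf8, a myeloid transcription factor that mouse macrophages need to express Naip genes, had 199, 249 and 303 CPM in EPS, against 13.9, 15.7 and 18.0 CPM in controls (3.98 ± 0.19, adjusted p = 2.79e-06). Irf2, which drives Gsdmd transcription in mouse macrophages, averaged 77.3 ± 5.53 CPM in EPS and 41.6 ± 2.37 CPM in controls (SD, n = 3 each; 0.89 ± 0.10). The lipoprotein receptor Tlr2 and the NF-kappaB precursor Nfkb1 had log2 fold changes of 2.61 ± 0.17 and 1.15 ± 0.11. The LPS receptor Tlr4, picked with its value known, overlapped between the groups and did not pass (0.39 ± 0.20, adjusted p = 0.120). Tlr4 was called higher without EPS 3 (0.0337) and with library totals (0.0126).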

How the data were processed

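Polyadenylated RNA of 6 peritoneum libraries was sequenced after 15 cycles of PCR, per the labels' protocols, which name no strand-marking step. The genome build was mm10, per the submitters' processing notes. No source used here names the aligner, counter or annotation. The authors deposited unnormalized read counts, 1 row per gene symbol.

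Genes were kept by filterByExpr (13980 tested, 963 untested), scaled by TMM and tested by edgeR 4.0.16 in R 4.3.3 with robust quasi-likelihood fits of group alone. P-values were Benjamini-Hochberg adjusted over all genes tested, and calls were made under 0.05. SEs are the log2 fold change over the root of F. DESeq2 1.42.0 and limma-voom 3.58.1 were alternatives. Ratios used log2 CPM with a prior count of 2. The edgeR fit was checked on simulated counts of fixed dispersion, in which far fewer genes changed than were called here. That check does not cover the choice of scaling or the pancreatic counts of EPS 1. Counting intervals cover counting error only. Coordinates are GENCODE vM21 gene bodies on GRCm38, the assembly of mm10.

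The members and lists were chosen with earlier results of these data known. Named genes are the 8 members, up to 4 called genes of lowest adjusted p from each further list (or the 2 of lowest p where none was called), and for each member the 2 genes nearest by profile with a mean count of at least 50. Other genes are marked as picked later, or are named because a small count or a neighbouring position turned on them.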

Additional observations from a re-analysis of the deposited data

How the results depend on the processing

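All 7 members called higher in EPS remained so in each of the 17 alternative fits: other scalings, low-count filters, DESeq2, limma-voom, each library left out, the replicate block, the mean of controls 1 and 2, the closest pair of libraries, as 1 sample, and pancreatic genes removed. The count of lower members, 1 (Gsdme), was 0 with library totals only, ranged from 0 to 1 with single libraries left out, and was 0 when EPS 1 was dropped and controls 1 and 2 entered as their mean, a fit chosen after seeing the data (adjusted p of Gsdme 0.0717, range over alternatives 0.00780 to 0.313). Library totals gave 5657 genes higher and 2182 lower over all genes tested, against 4088 and 4245 with TMM. Relative to TMM, library totals raised the log2 fold change of the median gene by 0.42. Gsdmd over Casp1 turned to -0.057 without EPS 3, with a range of -0.057 to 0.33 over single libraries left out. Nlrc4 relative to macrophage markers turned to -0.22 without control 1 and to -0.11 without EPS 1, with a range of -0.22 to 0.18. The cause of these turns was not tested. Same-numbered libraries did not deviate together throughout (correlations of 0.20, -0.10 and 0.24 for numbers 1 to 3, over 13980 genes). EPS 1 and EPS 3 correlated best with the control of the same number, and EPS 2 with control 3, at 0.19. Whether the numbers pair libraries cannot be told from these values. With the replicate block, 3947 genes were higher and 4166 lower, and the members' calls were 7 and 1. Levels per kb depend on the transcript length, which was compared with all exons after seeing the data. The members rest on 10 to 1343 counts per library.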
